A study of Mus musculus with 2 samples.

Results

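The 9 genes described here carry the fibroblast growth factor (FGF) signal from its ligands to its transcriptional output: the ligands Fgf4 and Fgf5, the receptors Fgfr1 and Fgfr2, the feedback inhibitors Spry2, Spry4 and Dusp6, and the ETS transcription factors Etv4 and Etv5. They were chosen by name and not by a cutoff on a measured value, though with earlier results of these data known. They are 9 of the 27998 genes counted. The study profiled mouse induced pluripotent stem cells (iPSCs) by droplet single-cell RNA sequencing in serum-containing medium, with 1 library of the knockout (SRFΔ/Δ) and 1 library of a control with floxed alleles (SRFf/f, labelled wild type). Srf encodes serum response factor. The labels name no clone, feeder layer, age of the line or way of deleting the allele.

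Cells were taken at 1000 or more detected genes and 1 to 10% mitochondrial UMIs (unique molecular identifiers, 1 per captured RNA molecule). They were then parted by their raw UMIs over 8 genes of the primitive endoderm, which are Gata6, Gata4, Sox17, Pdgfra, Dab2, Cubn, Lrp2 and Amn. Cells with at most 1 such UMI are called endoderm-low, and cells with at least 10 are called endoderm-high. The knockout library gave 592 endoderm-low, 66 intermediate and 95 endoderm-high cells out of 753 kept. The wild-type library gave 880 endoderm-low, 19 intermediate and 3 endoderm-high cells out of 902 kept, so the comparison between the 2 kinds of cell could be made in the knockout only.

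FGF ligands bind receptor tyrosine kinases, which pass the signal through RAS, RAF and MEK to the kinase ERK. ERK activity induces Sprouty proteins and dual-specificity phosphatases, which dampen the same cascade, and raises Etv4 and Etv5, so the RNA of these genes is widely read as its output. In the blastocyst, epiblast cells are the source of FGF4 while primitive endoderm precursors carry FGFR2, and Fgf5 comes on as the epiblast leaves the naive state. Serum response factor acts with other ETS proteins, themselves ERK substrates, at CArG boxes of immediate early genes such as Fos and Egr1.

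Endoderm-low cells held a median of 24466.5 UMIs (knockout) and 26624 UMIs (wild type). Srf itself gave 4 UMIs in the endoderm-low cells of the knockout and 198 in those of the wild type, in the direction of the labels; which part of the gene was deleted is not given in the sources used here. The kind of cell was checked on genes the rule did not use. In the knockout, 11 of 12 further primitive endoderm genes were past 1.5-fold higher in endoderm-high than endoderm-low cells. The other, Fst, was past it lower (1.78-fold). Of 15 pluripotency genes, 11 were past it lower and 2 within it, while Tbx3 (2.16-fold) and Klf5 (1.64-fold) were past it higher. Of 12072 genes compared in this way, 24.2% were past it higher and 12.1% past it lower. Some cells stood apart in other ways. Fibroblast markers were found in 20 of the 753 cells kept from the knockout and in 7 of the 902 kept from the wild type, 11 and 5 of which were endoderm-low. The share of UMIs from chromosome 8 genes was above 1.2 times the median wild-type share in some cells, called raised here. These were 279 of the 592 endoderm-low cells of the knockout and 86 of the 880 of the wild type. Of the 95 endoderm-high knockout cells, 3 carried macrophage markers, and 2 of the 3 wild-type ones did. The libraries share 2 cell barcodes.

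In the GENCODE annotation of GRCm38, Fgf4 lies at chr7:144847367-144865243 on the plus strand and Fgf5 at chr5:98254184-98277030 on the plus strand. Fgfr1 lies at chr8:25513654-25575718 on the plus strand, so it is on the chromosome whose share was raised in part of the cells. Fgfr2 is annotated on the minus strand at chr7:130162451-133123350, a span that overlaps 36 genes of the same strand and 33 of the other, so its counts are less certain than those of the other members. Spry2 lies at chr14:105891947-105896819, Dusp6 at chr10:99263231-99267489, Etv4 at chr11:101769742-101785371 and Etv5 at chr16:22381309-22439719.

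The 250 bases before the RefSeq start (GRCm38.p6) are shown for Fgf4, Fgf5 and Fgfr2, because these 3 genes part the 2 kinds of cell most. Capitals mark the letters GATA, searched on both strands as the core read by the GATA factors of the rule. The windows are chr7:144861136-144861385 (plus strand), chr5:98253934-98254183 (plus strand) and chr7:130266809-130267058 (minus strand), printed 5′ to 3′ on the gene's strand.
Fgf4: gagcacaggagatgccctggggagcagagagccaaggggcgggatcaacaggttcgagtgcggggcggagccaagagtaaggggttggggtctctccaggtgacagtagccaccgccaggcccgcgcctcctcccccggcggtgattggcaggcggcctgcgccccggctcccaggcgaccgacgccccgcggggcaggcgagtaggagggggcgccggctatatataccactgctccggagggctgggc
Fgf5: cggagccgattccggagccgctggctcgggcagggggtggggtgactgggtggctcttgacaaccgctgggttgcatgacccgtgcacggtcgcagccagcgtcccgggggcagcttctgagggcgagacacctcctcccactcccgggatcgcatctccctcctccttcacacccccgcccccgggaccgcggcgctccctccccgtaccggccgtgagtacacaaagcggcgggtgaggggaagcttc
Fgfr2: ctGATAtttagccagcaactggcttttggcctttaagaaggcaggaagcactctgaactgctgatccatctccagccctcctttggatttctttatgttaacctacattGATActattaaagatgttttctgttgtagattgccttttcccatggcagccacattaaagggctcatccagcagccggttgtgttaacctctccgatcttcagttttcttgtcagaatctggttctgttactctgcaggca
RefSeq windows were matched for 6 of the 9 members. The 4 letters GATA stood in the windows of Fgfr2 and Dusp6, each with 2 matches, and in 53.6% of all 32851 windows. The longer AGATAA, which contains GATA, was in none of the 6 and in 10.0% of all windows. The CArG box, the element bound by serum response factor, was in none of the 6 and in 1.47% of all windows. GGAA, the core letters of ETS sites, was found for 5 of the 6 members, all but Fgf4, and in 93.4% of all windows. These are letter matches in short windows and do not locate binding.

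In endoderm-low cells the knockout was past 1.5-fold higher than the wild type in Etv4 and Spry4 and past it lower in Fgfr2, while Fgf4, Fgfr1 and Dusp6 stood higher by less than that. The level is the summed UMIs of a gene per 1000000 summed UMIs (CPM), and the ratio is log2 of the 2 levels with 0.5 UMIs added to each sum. With 1 library per genotype there is no test, and every interval printed is an exact 95% interval that covers counting error only, not the spread between cultures. A gene was called when its ratio was at least 1.5-fold either way, its interval left out 1 and its mean level was at least 1 CPM. Among 11789 genes at that level, 12.3% were called, 7.93% as higher in the knockout and 4.41% as lower. Of the 8 members at that level, 2 were called higher, 1 was called lower and 5 were within the limit. The median log2 ratio of the 8 was 0.42, against 0.07 over all genes. Normalizing with TMM moved the overall split from 64.3% to 50.9% higher among called genes and left the members' calls at 2 higher and 1 lower. Markers of other cells also differed within endoderm-low cells. All 6 fibroblast markers at 1 CPM or more were called higher in the knockout (median log2 ratio 2.25), at a summed 68.4 against 16.5 CPM, or 11.4 against 6.78 CPM without the fibroblast-like cells. Of 9 primitive endoderm genes not of the rule, 6 were called higher and none lower (median 1.02), with Srgn at 49 against 2 UMIs and Col4a1 at 112 against 52. The full list of 12 such genes summed to 219.5 against 138.1 CPM, or 173.75 against 130.5 CPM without the fibroblast-like cells. Leaving out the fibroblast-like cells left 3 members called and a median of 0.40; the part of the endoderm genes' difference in the members' ratios was not tested.

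**Figure D1:**
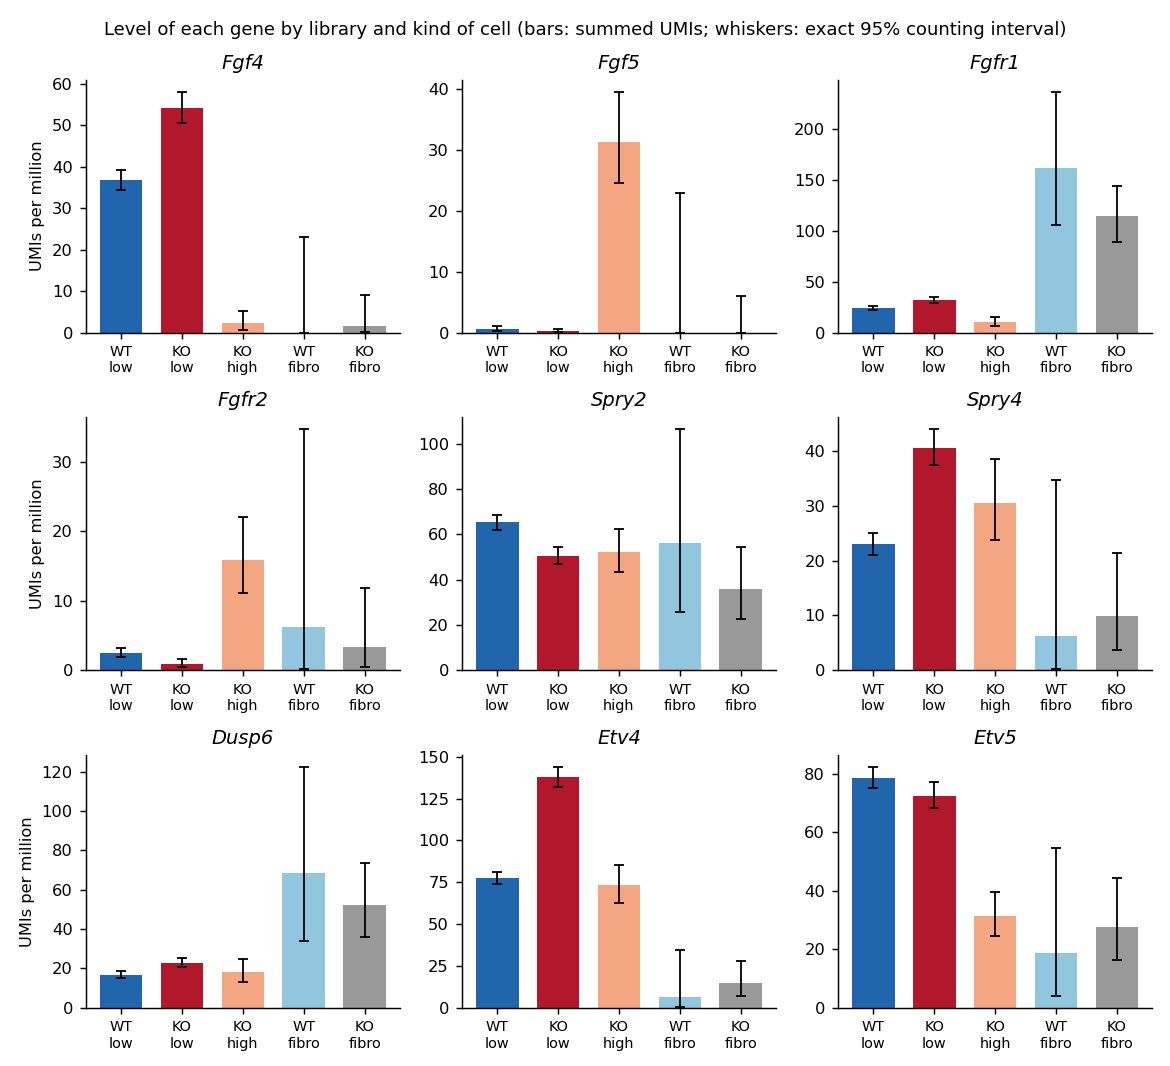
Level of each of the 9 genes in CPM (vertical axis, from 0, own scale for each gene) in wild-type (WT) and knockout (KO) endoderm-low cells, knockout endoderm-high cells and the fibroblast-like cells (fibro) of each library. Bars are summed UMIs over cells and whiskers the exact 95% counting interval; Fgf4 is at 54.1 CPM in knockout endoderm-low and 2.21 CPM in endoderm-high cells, and Fgf5 at 0.203 and 31.4 CPM.

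Fgf4, the ligand made by naive pluripotent cells, gave 799 knockout and 838 wild-type UMIs, or 54.1 CPM (50.4 to 58.0) and 36.7 CPM (34.3 to 39.3). The intervals of the levels did not overlap, and the log2 ratio was 0.56 (0.42 to 0.70), a 1.48-fold difference just inside the limit. It stood at percentile 94.9 of the ratios of genes at 10 CPM or more. In cells with at least 15000 UMIs the ratio was 0.61, past the limit. Fgf4 UMIs were spread over cells: 355 of 592 knockout and 476 of 880 wild-type cells carried at least 1, and the 2 richest cells held 19 and 13 of the UMIs.

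Fgf5, the ligand of the primed epiblast, was almost absent from endoderm-low cells. The knockout gave 3 UMIs in 3 of 592 cells and the wild type 14 UMIs in 7 of 880 cells, 8 of them in 1 cell. Its ratio of -1.42 had an interval from -4.03 to 0.25, so a genotype difference was not detectable at this depth.

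Fgfr1, the main FGF receptor of pluripotent cells, gave 476 knockout and 557 wild-type UMIs, or 32.2 CPM (29.4 to 35.3) and 24.4 CPM (22.4 to 26.5), with a log2 ratio of 0.40 (0.22 to 0.58). Fgfr1 was also the member most abundant in fibroblast-like cells, at 114 CPM (89.2 to 145) in the knockout and 162 CPM (106 to 237) in the wild type. With the fibroblast-like cells left out the ratio was 0.37 (0.18 to 0.55), and in cells of usual chromosome 8 share it was 0.36 (0.12 to 0.59).

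Fgfr2, the receptor of primitive endoderm precursors, was scarce in endoderm-low cells of both libraries. It gave 14 UMIs in 12 knockout cells, 0.949 CPM (0.519 to 1.59), and 57 UMIs in 52 wild-type cells, 2.50 CPM (1.89 to 3.23). The wild-type level was the higher one by 2.56-fold (1.45 to 5.11), a log2 ratio of -1.36 (-2.35 to -0.53). It was called lower under each of the 13 alternatives of cells or scaling that were run, with ratios from -1.87 to -0.94. Its levels lay near the fibroblast-like cells' 3.27 and 6.22 CPM, which rest on 2 and 1 UMIs.

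Spry4, a Sprouty protein that blocks ERK activation downstream of the receptors, gave 599 knockout and 525 wild-type UMIs, or 40.6 CPM (37.4 to 44.0) and 23.0 CPM (21.1 to 25.1). The levels did not overlap, and the knockout was 1.76-fold higher (1.57 to 1.99). The log2 ratio of 0.82 stood at percentile 98.2 of genes at 10 CPM or more. Dusp6, the cytoplasmic phosphatase that inactivates ERK, gave 339 and 385 UMIs, or 23.0 CPM (20.6 to 25.6) in the knockout and 16.9 CPM (15.2 to 18.6) in the wild type. Its log2 ratio of 0.45 (0.23 to 0.66) was in the same direction as that of Spry4 but within the limit. In cells of usual chromosome 8 share the Dusp6 ratio was 0.25, and its interval held 0 (-0.03 to 0.52). Dusp6 was also above both levels in fibroblast-like cells, at 52.3 CPM in the knockout and 68.5 CPM in the wild type.

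Etv4 and Etv5, related ETS factors of the same subfamily, differed between genotypes by different amounts. Etv4 gave 2034 knockout and 1773 wild-type UMIs, or 138 CPM (132 to 144) and 77.6 CPM (74.1 to 81.3), and the knockout was 1.77-fold higher (1.66 to 1.89). Etv5 gave 1072 knockout and 1797 wild-type UMIs, or 72.6 CPM (68.3 to 77.1) and 78.7 CPM (75.1 to 82.4), a log2 ratio of -0.12 (-0.23 to -0.01). The intervals of the 2 ratios lay apart, with Etv4 at 0.73 to 0.92. Both genes were low in fibroblast-like cells, Etv4 at 14.7 and 6.22 CPM and Etv5 at 27.8 and 18.7 CPM in the knockout and the wild type.

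**Figure D2:**
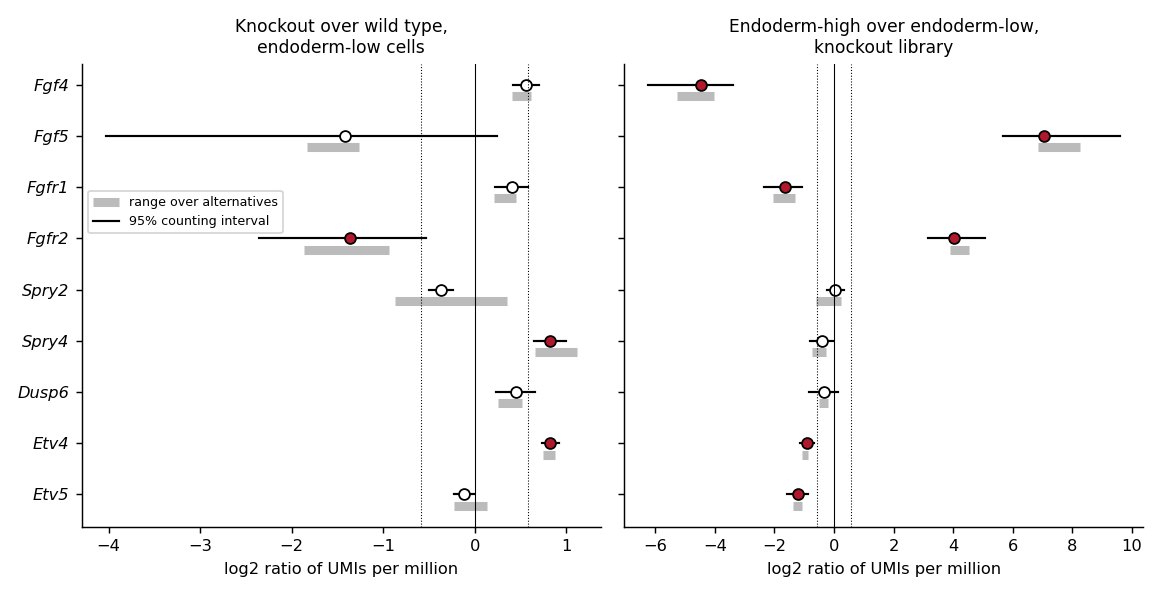
Log2 ratio of each gene (horizontal axis) for knockout over wild type in endoderm-low cells (left) and for endoderm-high over endoderm-low cells of the knockout (right). Points are the ratios, filled where called, black lines the exact 95% counting interval, grey bars the range over the alternatives of cells and scaling, and dotted lines the 1.5-fold limit; in the left panel the grey bars of Spry2 and Etv5 cross 0, those of the other members do not.

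The ETS factors differed between cells of raised and usual chromosome 8 share, each in the same direction in both libraries. Etv5 was at 56.3 CPM in raised and 88.0 CPM in usual knockout cells, and at 65.3 and 80.2 CPM in the corresponding wild-type cells. Etv4 went the other way, at 150 CPM in raised and 126 CPM in usual knockout cells and at 114 and 73.6 CPM in wild-type cells. Spry4 differed in opposite directions, at 34.0 CPM in raised and 46.8 CPM in usual knockout cells but 35.8 and 21.6 CPM in wild-type cells. Dusp6 was at 25.7 CPM in raised and 20.4 CPM in usual knockout cells, and at 14.1 and 17.2 CPM in wild-type cells. Fgfr1, the member on chromosome 8, was at 34.8 and 29.9 CPM in the knockout and at 34.0 and 23.3 CPM in the wild type. Its own UMIs count in the share that sorts the cells, so these levels are not independent of the sorting. Among cells of usual share, the knockout over wild-type log2 ratio was 1.12 for Spry4 (0.91 to 1.32), 0.78 (0.66 to 0.90) for Etv4 and 0.13 for Etv5 (0.00 to 0.26), so that Etv5 changed sign. Whether the raised share has a part in these levels was not tested.

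Spry2, the other Sprouty protein among the members, was lower in the knockout over all endoderm-low cells. It gave 747 knockout and 1489 wild-type UMIs, or 50.6 CPM (47.0 to 54.4) and 65.2 CPM (61.9 to 68.6), a log2 ratio of -0.37 (-0.49 to -0.24), within the limit. The wild-type UMIs were concentrated: after each cell was thinned at random to 10413 UMIs, 46 of 791 wild-type and 11 of 525 knockout cells still had 5 or more. Across cells, the gene most like Spry2 was Rpgrip1, with Pearson r of 0.37 over 525 knockout and 0.62 over 791 wild-type thinned cells, and Cbx3 followed at 0.31 and 0.52. Supt16, next at 0.27 and 0.53, is like Rpgrip1 on chromosome 14 with Spry2. No other member had a partner with r of 0.3 or more in both libraries.

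Cells whose summed share of Rpgrip1, Cbx3 and Supt16 was at least 3 times the wild-type median, a set defined after the data were seen, made up 7.26% of the knockout (43 of 592 cells) and 21.2% of the wild type (187 of 880). These 3 genes were picked in the same cells as those most like Spry2, so high Spry2 inside the set follows from the choice and is a description; no such set was built for another member. Its cells held 30.5% of the Spry2 UMIs of the knockout and 60.3% of those of the wild type. Inside the set Spry2 stood at 361 CPM in the knockout and 385 CPM in the wild type, and outside it at 36.7 and 28.8 CPM. Without these cells the Spry2 ratio turned to 0.35 (0.18 to 0.52), higher in the knockout. As the set was picked by likeness to Spry2 and held more of the wild-type Spry2 UMIs, this shift too is a description. Without the cells of the set Fgf4 was at 0.58, Fgfr1 at 0.42, Fgfr2 at -1.17, Spry4 at 0.82, Dusp6 at 0.51, Etv4 at 0.85 and Etv5 at -0.10. The cells of the set had a median of 12495 (knockout) and 11257 (wild-type) UMIs, fewer than the 25072 and 28957 of the rest, and their Actb, the gene of cytoplasmic actin, was at 1133 CPM in the knockout and 4787 CPM in the wild type, against 269 and 661 CPM outside. Other choices of cell moved Spry2 too: its ratio was 0.15 (-0.00 to 0.30) in cells with at least 15000 UMIs and -0.87 when every cell was weighted alike, where it was called lower.

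**Figure D3:**
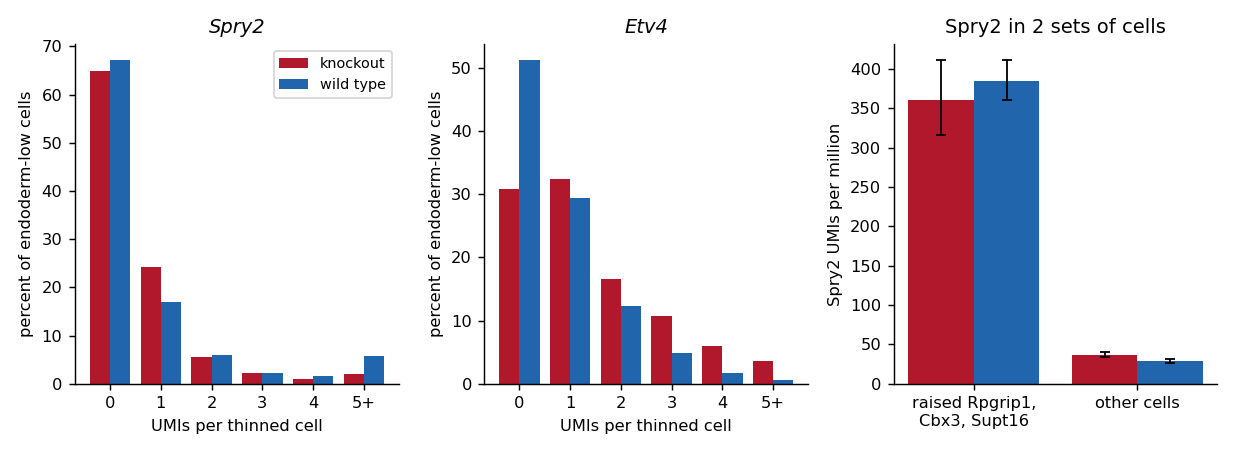
Left and middle: percent of endoderm-low cells (vertical axis) by UMIs of Spry2 or Etv4 per cell after thinning to 10413 UMIs, for 525 knockout and 791 wild-type cells. Right: Spry2 in CPM in cells with raised Rpgrip1, Cbx3 and Supt16 and in the other endoderm-low cells, with exact 95% counting intervals; Spry2 is near 361 and 385 CPM in the former and under 40 CPM in the latter.

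At a matched depth of 10413 UMIs, more knockout than wild-type endoderm-low cells carried Etv4, Fgf4 and Spry4, and for these 3 members the exact binomial intervals did not overlap. The same count was not made over all genes, so whether it is large for the members is not known. Etv4 was found in 69.1% of thinned knockout cells (65.0 to 73.1) and 48.8% of thinned wild-type cells (45.3 to 52.3), against 85.5% and 73.8% without thinning. Fgf4 was found in 41.5% and 30.3%, and in 60.0% and 54.1% without thinning. Spry4 was found in 28.2% and 18.7%, and in 46.5% and 34.3% without thinning. Fibroblast-like cells, with medians of 29833.5 (knockout) and 23586 (wild-type) UMIs, serve as background: after thinning, Fgf4 was in 0 of 18 and 0 of 7, Etv4 in 2 and 1, and Spry4 in 3 and 0. The knockout shares of Fgf4 and Etv4 lay above the upper bounds of this background, 18.5% and 34.7%. The knockout share of Spry4 lay inside its interval (3.58 to 41.4%), and the wild-type shares of all 3 lay inside the wide intervals of 7 cells. By share, an excess over background was therefore not detectable for these. By level, the log2 ratio of fibroblast-like over endoderm-low cells was -1.94 (-3.50 to -0.92) for Spry4 in the knockout. In the wild type it was -3.06 (-8.95 to -1.16) for Etv4 and -3.56 for Fgf4, with an upper bound of -0.67. For wild-type Spry4 it was -1.30, and the interval held 0 (-7.19 to 0.60).

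For the other members the intervals overlapped at this depth. Thinned shares in the knockout and the wild type were 27.8% and 22.6% for Fgfr1, 20% and 15.2% for Dusp6, 35.0% and 32.9% for Spry2, 50.7% and 54.1% for Etv5, 1.52% and 2.53% for Fgfr2 and 0.190% and 0.379% for Fgf5. Thinning left out 67 knockout and 89 wild-type cells as too shallow. Only 51 and 14 of these lay outside the set with raised Rpgrip1, Cbx3 and Supt16. The Spry2 shares, like its thinned counts and r values above, thus lack many wild-type cells rich in Spry2. Thinning to 15000 UMIs left 491 and 721 cells and added Fgfr1 and Dusp6 to the members found in more knockout cells. Thinning to 5000 UMIs left only Etv4 higher, at 47.9% and 29.9%: the intervals of Fgf4 (22.6% and 16.7%) and Spry4 (13.4% and 9.60%) overlapped, and Spry2 was lower in the knockout, at 18.0% and 25.8%. The Fgf4 intervals also overlapped without thinning and when endoderm-low was held to cells with 0 endoderm UMIs (39.2% and 31.0%). In cells of usual chromosome 8 share the thinned shares were nearly alike for Fgfr1, at 22.7% (knockout) and 21.7% (wild type). Those of Dusp6 were 14.9% and 16.0%, the other way. Etv4, Fgf4 and Spry4 stayed higher in the knockout there.

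Cell-to-cell variation beyond counting noise was read as the squared coefficient of variation of thinned UMIs minus 1 over their mean, for the 3 members with a mean of at least 0.5 in both libraries. At this depth it was lower in the knockout for those 3: 0.298 against 0.506 for Etv4, 0.191 against 0.258 for Etv5 and 2.92 against 4.51 for Spry2. Among members with a mean below 0.5 in at least 1 library it was higher in the knockout for Fgf4 (0.561 against 0.405), Fgfr1 (0.617 against 0.325) and Spry4 (1.62 against 0.842) and lower for Dusp6 (0.864 against 1.82). The direction also turned for some members at other depths, with 3 of 6 higher in the knockout without thinning and 2 of 4 at 15000 UMIs. Outside the set of cells with raised Rpgrip1, Cbx3 and Supt16 the Etv4 values were 0.319 and 0.392, and those of Spry2, now from means below 0.5, were 0.463 and 0.922. The thinned values over all endoderm-low cells lack the cells of that set that were too shallow to thin. Pearson r between members over thinned cells ran from -0.08 to 0.20 over the 36 pairs in the knockout and from -0.06 to 0.10 in the wild type, too weak in counts this sparse to order the pairs.

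The other genes of the pathway, listed by role, gave a mixed picture between genotypes. Of 15 measured feedback and ETS genes, 4 were called higher and 1 lower: Phlda1, a feedback-induced gene, at 37.5 against 15.5 CPM (log2 ratio 1.27), the ETS factor Etv1 at 16.3 against 6.96 CPM (1.22), and the RAS inhibitors Spred3 (0.83) and Spred1 (0.62) were higher in the knockout, and Errfi1, an inhibitor of EGF receptors, was lower (-0.61). Of the 25 genes from adaptors to ERK, only Rras was called, as lower (-0.73), and the median ratio was -0.05. Of 9 receptors and co-receptors, the decoy receptor Fgfrl1 (0.79) and the proteoglycan Sdc1 (0.69) were higher and the glypican Gpc3 (-0.79) was lower. Of 7 further ligands, Fgf10 was higher, with 39 against 28 UMIs (1.10), and Fgf8 lower, with 10 against 134 UMIs (-3.05), of which 63 wild-type UMIs came from 2 cells.

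Of 6 immediate early genes measured, 4 were called lower in the knockout and none higher, and 1 of the 4 was Srf, the deleted gene, whose direction the label fixes. Fos was at 10.6 CPM in the knockout and 114 CPM in the wild type (log2 ratio -3.43), Egr1 at 5.08 and 42.2 CPM (-3.04) and Fosb at 10.2 and 26.8 CPM (-1.40). Ier2 and Junb, at 0.05 and -0.12, were within the limit. The median of the list was -2.22 with Srf, and without it the middle gene was Fosb.

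**Figure D4:**
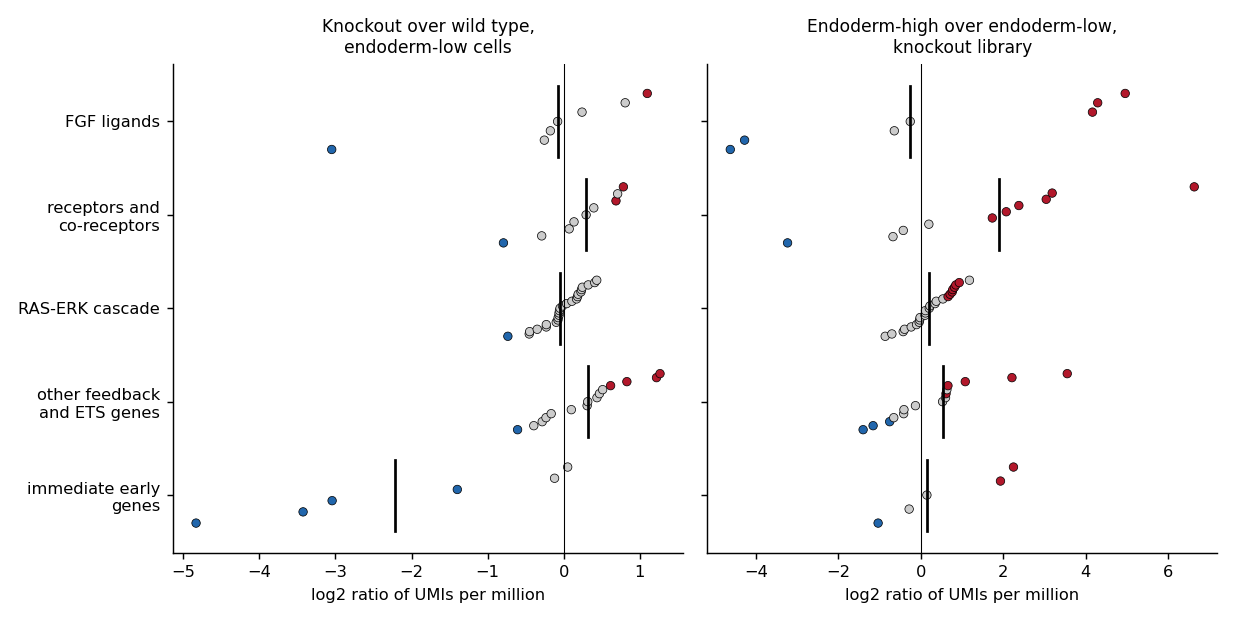
Log2 ratio (horizontal axis) of each gene of the 5 pathway lists with a mean of at least 1 CPM, for the genotype comparison (left) and for endoderm-high over endoderm-low knockout cells (right). Each point is 1 gene, red where called higher, blue where called lower and grey within the limit, and the black bar is the median of the list; immediate early genes have a median of -2.22 in the left panel, Srf included, and 0.15 in the right.

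Within the knockout, endoderm-high cells had less Fgf4, Fgfr1, Etv4 and Etv5 and more Fgf5 and Fgfr2 than endoderm-low cells, while Spry2, Spry4 and Dusp6 were within the limit. The 2 kinds of cell differ in much of the transcriptome: of 12072 genes at 1 CPM or more, 36.3% were called, 24.2% as higher and 12.1% as lower in endoderm-high cells. Of the 9 members, 2 were called higher and 4 lower. Their median log2 ratio was -0.40, against 0.13 over all genes, and TMM scaling put the median of all genes at -0.03 and the share of higher among called genes at 55.0% in place of 66.7%, with the members' 6 calls unchanged in number. The 95 endoderm-high cells had a median of 22937 UMIs, and 61 of them had a raised chromosome 8 share.

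Fgf4 gave 5 UMIs in 5 of 95 endoderm-high cells, or 2.21 CPM (0.717 to 5.16), against 799 UMIs and 54.1 CPM in endoderm-low cells, which was 22.3-fold more (10.5 to 75.7). The endoderm-high level was near that of fibroblast-like knockout cells, 1.63 CPM from 1 UMI, so it cannot be told from background. Fgf5 ran the other way, with 71 UMIs at 31.4 CPM (24.5 to 39.6) against 3 UMIs at 0.203 CPM, a log2 ratio of 7.06 (5.66 to 9.58).

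The receptors differed in opposite directions. Fgfr2 gave 36 UMIs in 25 of 95 endoderm-high cells, 15.9 CPM (11.1 to 22.03), against 0.949 CPM in endoderm-low cells, and was 16.4-fold higher (8.83 to 33.7). Fgfr1 gave 23 UMIs, 10.2 CPM (6.44 to 15.2), against 32.2 CPM, a log2 ratio of -1.64 (-2.34 to -1.06). In thinned cells both RNAs were also counted cell by cell. Of 525 endoderm-low knockout cells 213 had Fgf4 alone, 3 Fgfr2 alone and 5 both, and of 91 endoderm-high cells 3 had Fgf4 alone, 13 Fgfr2 alone and 0 both. In 791 wild-type endoderm-low cells the numbers were 231, 11 and 9. Fgfr2 was too rare for these counts to show that the RNAs avoid each other: of the 8 knockout and 20 wild-type endoderm-low cells with Fgfr2, 5 and 9 had Fgf4 too, at shares of Fgf4 in all cells of 41.5% and 30.3%.

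Over all endoderm-high cells the feedback genes were within the limit. Spry2 was at 52.1 CPM (43.2 to 62.4) against 50.6, Spry4 at 30.5 (23.7 to 38.6) against 40.6 and Dusp6 at 18.1 (13.0 to 24.6) against 23.0 CPM. In cells of usual chromosome 8 share Spry4 was called lower too, at -0.73 (-1.47 to -0.13), which made 7 calls. The ratio of Spry2, 0.05, became -0.62 with a limit of 20 endoderm UMIs, where it was called lower; the cells with 10 to 19 such UMIs, which that limit leaves out, stood at 123 CPM (94.1 to 159). The ETS factors were lower: Etv4 at 73.4 CPM (62.6 to 85.4) against 138, a log2 ratio of -0.91 (-1.15 to -0.68), and Etv5 at 31.4 CPM (24.5 to 39.6) against 72.6, a ratio of -1.20 (-1.58 to -0.86). Leaving out the 3 macrophage-like cells gave the same 6 calls.

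The shares of endoderm-high cells with a UMI were read in 91 cells thinned to 10413 UMIs. Fgf4 was found in 3.30% (0.685 to 9.33) of them, against 41.5% of endoderm-low knockout cells, and Fgf5 in 16.5% (9.53 to 25.7) against 0.190%. Fgfr2 was found in 14.3% (7.83 to 23.2) against 1.52%, and Fgfr1 in 12.1% against 27.8%. Etv4 was in 51.6% and Etv5 in 21.98% of endoderm-high cells, against 69.1% and 50.7%. For Spry2, Spry4 and Dusp6 the shares were 28.6%, 27.5% and 16.5%, against 35.0%, 28.2% and 20%, with intervals that overlapped. Without thinning, the 95 cells gave 5.26% for Fgf4, 21.1% for Fgf5, 26.3% for Fgfr2 and 16.8% for Fgfr1.

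**Figure D5:**
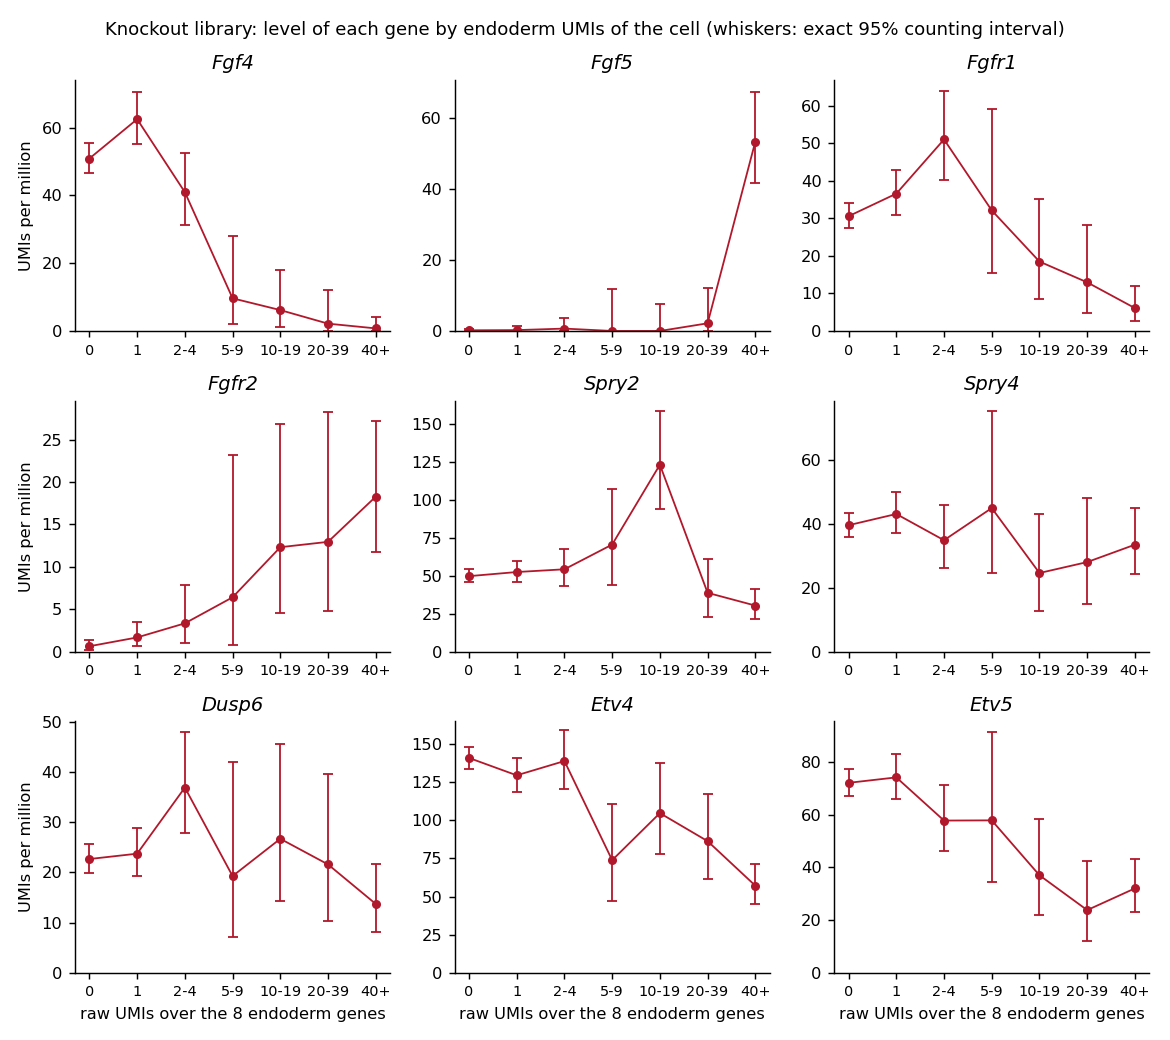
Level of each gene in the knockout library in CPM (vertical axis, own scale) for cells grouped by raw UMIs over the 8 endoderm genes (horizontal axis); points are summed UMIs over 446, 146, 51, 15, 23, 19 and 53 cells from left to right and whiskers the exact 95% counting interval. Fgf4 drops from 40.9 CPM at 2 to 4 UMIs to 9.64 CPM at 5 to 9, and Fgf5 is at 53.3 CPM at 40 or more and at 2.16 CPM or less in every other group.

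Cells grouped by their endoderm UMIs showed where each member turned. Fgf4 was at 50.9, 62.5 and 40.9 CPM in cells with 0, 1 and 2 to 4 endoderm UMIs. It was at 9.64, 6.16, 2.16 and 0.762 CPM in the 4 groups from 5 to 9 up to 40 or more. Fgfr1 was at 51.0 CPM in the group with 2 to 4, which holds 9 fibroblast-like cells among its 51, and at 6.09 CPM at 40 or more. Fgfr2 was at 0.658 CPM at 0 and 18.3 CPM at 40 or more, with each group's level above the one before it but most neighbouring intervals overlapping. Fgf5 gave 70 of its 71 endoderm-high UMIs in the 53 cells with 40 or more. The groups with 5 to 9 and 20 to 39 UMIs have only 15 and 19 cells.

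Fgf5 was found in a minority of these cells. Its 71 UMIs came from 20 of the 92 endoderm-high cells left after the macrophage-like ones, 14 cells had 2 or more, the richest had 9 and the top 5 held 39. These 20 cells had a median of 97 endoderm UMIs against 38 in the other 72, at a median total of 21218 and 24619.5 UMIs, and 8 of 20 against 53 of 72 had a raised chromosome 8 share. The genes that set them apart, ranked after the values were seen, included Otx2, a homeobox factor, with 65 UMIs against 0, Ttr, the transthyretin carrier made by visceral endoderm, with 186 against 1, Lhx1 with 103 against 7 and Apob with 54 against 5. Eomes and the Nodal antagonist Lefty1 were also higher, at 122 against 11.8 CPM and 552 against 69.5 CPM. The pluripotency factor Pou5f1 was lower, at 86.0 against 557 CPM (38 against 993 UMIs). Genes of the rule did not all go with the higher endoderm sum. Sox17 was lower, with 7 against 137 UMIs (log2 ratio -2.18, -3.62 to -1.20), and so was Gata6, at 208 against 309 CPM (-0.56, -0.90 to -0.25). The interval of Gata4 held 0 (-0.01 to 0.77).

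Of the other members, Fgfr1 and Spry2 differed between these 2 sets of endoderm-high cells. Fgfr1 had 0 of its 23 UMIs in the cells with Fgf5, and Spry2 was at 29.4 against 58.3 CPM (log2 ratio -0.94, -1.94 to -0.15). The intervals of Fgf4, Fgfr2, Spry4, Dusp6, Etv4 and Etv5 all held 0. The single wild-type endoderm-high cell without macrophage markers, with 46778 UMIs, carried 4 UMIs of Fgf5, 1 of Fgfr2 and none of Fgf4.

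The genes of the pathway lists named next were picked after their values were seen. Among 7 ligands measured, Fgf3 was at 53.5 against 1.69 CPM, Fgf10 at 47.7 against 2.64 CPM and Fgf8 at 13.7 against 0.678 CPM in endoderm-high and endoderm-low cells. Fgf17 was lower, at 0.884 against 21.4 CPM (2 against 316 UMIs), and so was Fgf15, at 0 against 5.42 CPM (0 against 80 UMIs). Among 10 receptors and co-receptors 6 were higher and 1 lower: Klb, the co-receptor for endocrine FGFs, stood at 30.1 against 0.271 CPM, and Fgfr4 and Fgfr3 at 10.2 and 6.19 against 1.96 and 1.49 CPM. Of 25 genes from adaptors to ERK, 7 were higher and none lower, a number near the 24.2% of all genes called higher. Of 15 other feedback and ETS genes, 5 were higher and 3 lower, with the ERK phosphatase Dusp4 at 60.5 against 5.15 CPM, Phlda1 at 173 against 37.5 CPM and Etv1 at 7.07 against 16.3 CPM. All 5 macrophage genes were higher in endoderm-high cells, at a summed 229.8 against 10.3 CPM. The 3 macrophage-like cells, picked by these same genes, held 506 of the 520 UMIs, and the other 92 stood at 6.29 CPM.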

How the data were processed

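Droplet (10x Chromium) libraries of SRFΔ/Δ and SRFf/f mouse iPSCs, 1 each, were deposited by the authors as UMI counts per gene and cell. Cell Ranger 2.0.0, Seurat 3.1.1 and the build mm10 are named, with no roles, per the submitters' processing notes. The deposited counts are whole numbers, and no p-value can be had from 1 library per genotype. The members, gene lists and rules were chosen with earlier results of these data known.

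Raw counts were summed over the cells of a class, and levels given per 1000000 summed UMIs. Level intervals are exact Poisson, shares exact Clopper-Pearson and ratios exact conditional binomial, all at 95% and all for counting error only; UMIs of 1 cell are not independent samples of a culture. Shares and variation were read after thinning cells to 10413 UMIs (the 10th percentile of totals), which left out 67 knockout and 89 wild-type endoderm-low cells. Fibroblast-like and macrophage-like cells carried at least 10 UMIs over 7 or 5 markers. Scrublet in scanpy 1.11.5 called 2 of 1073 knockout and 5 of 954 wild-type barcodes as doublets, too few to show that doublets were found, so none were removed. Python 3.11.15, numpy 2.4.6, scipy 1.17.1 and pandas 2.3.3 were used, and edgeR 4.0.16 only for TMM factors. The ratio and thinning steps were tested on simulated data. Named genes are the members, listed pathway genes called between genotypes, and others marked as chosen after their values were seen. GENCODE M21 identifiers matched 99.0% of genes. Left out by the mitochondrial limits were 244 knockout and 17 wild-type cells under 1%, and 71 and 33 over 10%.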

Additional observations from a re-analysis of the deposited data

Results flagged for a closer look

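Cells under 1% mitochondrial UMIs, which the comparisons do not use, numbered 244 (knockout) and 17 (wild type), with medians of 8632 and 16100 UMIs. Etv4 stood at 138 CPM (124 to 152) in these knockout cells, above the 61.2 CPM (36.3 to 96.8) of the wild-type ones. It was at the same level as in the endoderm-low knockout cells, with a log2 ratio of 0.00 (-0.16 to 0.16), as was Dusp6 at 23.2 CPM. Fgf4, Fgfr1, Spry2, Spry4 and Etv5 were lower than in endoderm-low knockout cells, at 12.3, 7.03, 17.2, 10.2 and 34.5 CPM. Between genotypes, Fgfr1, Spry2 and Dusp6 were lower in these knockout cells than in the wild-type ones, with log2 ratios of -2.56 (-3.64 to -1.37), -1.40 (-2.26 to -0.35) and -1.08 (-1.88 to -0.09), from 12, 13 and 14 wild-type UMIs. Of these cells, 1 of the 17 wild-type and 0 of the 244 knockout ones were fibroblast-like. Fgfr1 and Dusp6 were high in fibroblast-like cells. A part of that cell, of the low mitochondrial share or of depth in these levels was not tested.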

How the results depend on the processing

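No paired analysis was possible because only 1 knockout and 1 wild-type library exist here. Between genotypes, 3 members were called, and 15 of 16 alternatives gave a like number, while a 2-fold limit left 1. The median of the members, 0.42, became 0.32 with each cell weighted alike, 0.31 with cells under 1% mitochondrial kept and 0.30 in cells of usual chromosome 8 share. In endoderm-high against endoderm-low cells, 6 members were called, with 5 to 7 under the 18 alternatives: 7 in cells of usual chromosome 8 share and with a limit of 20 endoderm UMIs, 5 with a 2-fold limit and for members at 10 CPM or more. Their median, -0.40, became -0.56 under TMM, -0.54 under the median of ratios, -0.73 in cells of usual chromosome 8 share, -0.51 without called doublets, -0.62 with a limit of 20 endoderm UMIs and -0.65 for members at 10 CPM or more. Members whose shares of cells did not overlap were 3 (Etv4, Fgf4 and Spry4 higher), and 5 when thinned to 15000 UMIs, with no such count over all genes to set beside them. Thinned to 5000 UMIs they were Etv4 (higher) and Spry2 (lower); without thinning Fgf4 overlapped while Etv4, Spry4 and Dusp6 were higher and Fgfr2 lower; with endoderm-low cells at 0 UMIs Fgf4 overlapped. Higher excess variation in the knockout was found for 0 of 3 members, for 3 of 6 without thinning, 2 of 4 at 15000 UMIs and 1 of 3 with endoderm-low cells at 0 UMIs, and at 5000 UMIs no member reached the mean needed. The cause of these shifts was not tested. Leaving out cells with macrophage markers, or with raised Rpgrip1, Cbx3 and Supt16, was chosen after seeing the data. Depth limits Fgf5 and Fgfr2 in endoderm-low cells and Fgf4 in endoderm-high cells.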
